A study of Rattus norvegicus with 12 samples.

Results

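This comparison sets fibro-adipogenic progenitors of the rat soleus after 14 days of hindlimb suspension against the same kind of cells after 7 days of it, both before adipogenic induction (day 0). Its members are the 4 libraries whose columns in the count table carry these labels, 2 for 14 days and 2 for 7 days, of 12 libraries in all. The other 8 libraries are 2 each of 14-day, 7-day and control cells at day 3 of induction with insulin, dexamethasone and 3-isobutyl-1-methylxanthine, and 2 of control rats at day 0. All cells were primary cultures of Rattus norvegicus grown in DMEM with serum until subconfluent, so that the RNA is that of cells in culture after isolation and not of cells taken straight from the muscle. The labels give no strain, sex or age, and they do not say how many animals a culture came from or whether the numbered replicates came from separate animals or cultures. A p-value is here set against the spread between libraries of the same group, pooled over all 6 groups of the fit. Part or all of that spread may thus be technical.

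Fibro-adipogenic progenitors are the mesenchymal cells that lie between muscle fibres. They lay down matrix, send signals to muscle stem cells, and can turn into fat cells or fibroblasts when a muscle is injured or disused. The soleus is a postural muscle that works against gravity, and hindlimb suspension takes the load off it. The comparison asks how progenitors after the longer period of unloading differ from those after the shorter one, before the induction of fat cell formation.

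The deposited table holds Ensembl identifiers without gene names, and 0 of its 32622 identifiers matched the RefSeq table of rat genes used here. The labelled cell type was therefore not checked against markers, no pathway or marker list was counted, no promoter was matched to an identifier, and genes are described below by their level, their size of difference and their behaviour in other libraries. Because bulk RNA was measured, fewer cells that express a gene and less of its RNA in each cell cannot be told apart.

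The 14-day libraries held 19373771 and 21484885 counts, against 15789034 and 15551746 in the 7-day libraries. The filter kept 13215 genes, 40.5% of the identifiers. Levels are given as CPM, a gene's counts relative to the size of its library after scaling by TMM, a method that assumes most genes do not differ. Between the 2 libraries of 14 days the median gene differed by 0.106 on the log2 scale, and between the 2 of 7 days by 0.151. Over all genes, the root mean square log2 difference was 0.369 between the 14-day replicates and 0.407 between the 7-day replicates, and it was 0.573 to 0.584 between a 14-day and a 7-day library. Against control cells at day 0 it was 0.550 to 0.560 for 14-day libraries and 0.621 to 0.630 for 7-day libraries. The 7-day libraries thus lay farther from the control libraries than the 14-day libraries did, by this measure, and each pair of groups lay farther apart than the replicates of a group.

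Of the genes tested, 723 were higher and 827 lower in 14-day than in 7-day cells at day 0, by edgeR's quasi-likelihood test at a Benjamini-Hochberg FDR of 0.05. These are 5.47% and 6.26% of the genes tested, 11.7% together. Most of the higher genes differed little: 531 of the 723 by less than 0.5 on the log2 scale and 42 by at least 2-fold (0.318% of the genes tested), with a median of 0.333. The lower genes differed more. Their median was -0.602, 274 of the 827 were at least 2-fold lower (2.07% of the genes tested), and 114 (0.863%) were at least 8-fold lower, a size that 2 of the higher genes reached. The libraries of the groups did not overlap in 1548 of the 1550 called genes, as in 50.4% of all genes tested.

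Without replicate 1 of the 14-day group 354 genes were higher and 508 lower, and without its replicate 2 the numbers were 407 and 480. The count of genes at least 2-fold higher was 27 without replicate 1. The excess of large differences among the lower genes stood in every alternative tried: 4.75 to 8.61 genes were at least 2-fold lower for each that was at least 2-fold higher, against 6.52 in the fit to all libraries.

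**Figure D1:**
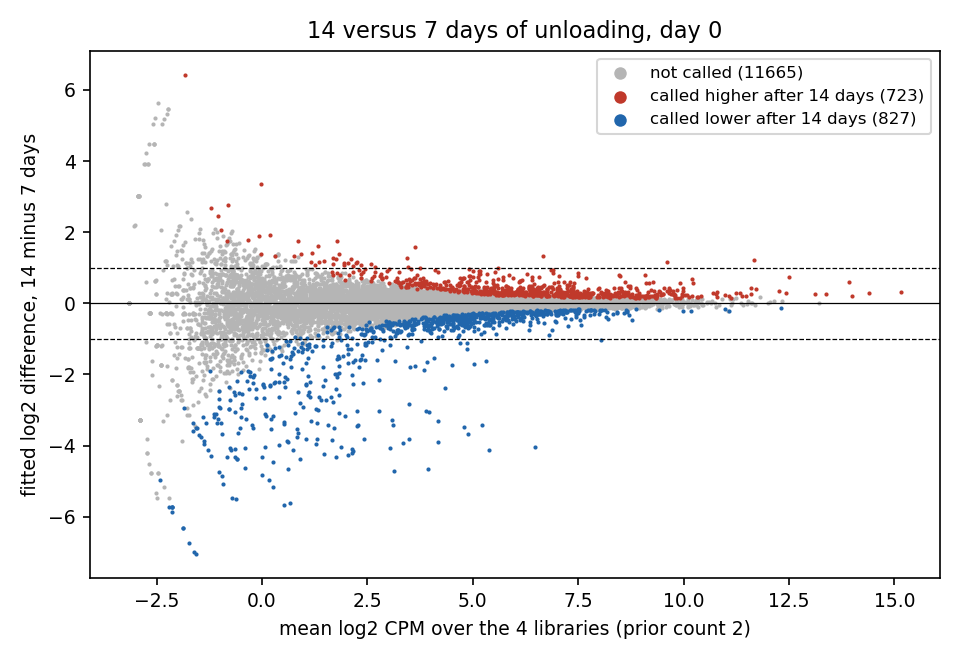
Fitted log2 difference between 14 and 7 days at day 0 (vertical axis) against the mean log2 CPM over the 4 libraries (horizontal axis), 1 point per gene, with the 723 genes called higher in red and the 827 called lower in blue. Dashed lines mark 2-fold; 274 of the lower genes and 42 of the higher genes lie beyond them, and the deep tail of lower genes sits at low levels.

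The direction of the difference went with the level of the gene. Of the 3189 genes with a mean of 1 to 10 CPM over the 4 libraries, 63 were higher and 255 lower in 14-day cells, 28 and 177 of them at least 2-fold. Of the 1475 genes under 1 CPM, 8 were higher and 62 lower. Between 10 and 100 CPM 344 were higher and 412 lower of 6761 genes, with 3 and 33 at least 2-fold. At 100 CPM and above, with scaling by TMM, 308 were higher and 98 lower of 1790 genes, with a median size of 0.253 among those called. Reads, not reads per length, set these levels, so that they show how much of each library a gene took.

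The split at high levels depends on the scaling. With scaling to the total count 163 genes at 100 CPM and above were higher and 288 lower, while under 10 CPM the lower genes stayed in excess (72 against 8 higher under 1 CPM, and 337 against 52 higher from 1 to 10 CPM). Over all levels 20.6% of the called genes were then higher, against 46.6% with TMM, and the median gene moved by -0.085 on the log2 scale. The composition of the libraries differed in the same direction. The 100 genes with the most counts took 32.3% and 32.1% of the counts in the 14-day libraries, against 29.5% and 30.2% in the 7-day libraries. The single gene with the most counts, the same in all libraries, took 4.09% and 3.89% in the 14-day libraries, against 3.22% and 3.63% in the 7-day libraries. Their part in the split was not tested.

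Genes below 5 CPM in both groups reached larger fitted sizes, up to 6.43 among the higher and 7.04 among the lower genes, from few reads, and are not ranked here. Among the 15 largest rises of genes that reached 5 CPM in the 14-day libraries, fitted log2 differences ran from 1.07 to 1.75. ENSRNOG00000016358 headed this ranking with 6.12 and 6.68 CPM in 14-day libraries, against 2.79 and 0.994 CPM in 7-day libraries (log2 difference 1.75, SE 0.36, adjusted p = 0.000584 by edgeR's quasi-likelihood test). The control libraries of that day had 1.48 and 1.83 CPM. The groups did not overlap, but the 7-day libraries lay far apart: the difference was 2.68 without replicate 1 of the 7-day group and 1.20 without its replicate 2, past the threshold both times.

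ENSRNOG00000005650 came next with 22.0 and 21.0 CPM in 14-day libraries, against 7.76 and 6.46 CPM in 7-day libraries (log2 difference 1.60, SE 0.17, adjusted p = 3.59e-09). Control cells at day 0 had 6.52 and 6.71 CPM, so that the 14-day libraries stood apart from the other 4 libraries of that day. At day 3 it had 3.95 and 3.52 CPM after 14 days, against 4.36 and 4.56 CPM after 7 days, a difference that did not pass the test (log2 difference -0.26, adjusted p = 0.426).

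The higher gene with the most counts among those at least 2-fold higher was chosen after its values were seen. It had 4920 and 4970 CPM in 14-day libraries, against 2130 CPM in each 7-day library (log2 difference 1.21, SE 0.04, adjusted p = 9.61e-23). Alone it took 0.485% ± 0.00537 of the counts in 14-day cells and 0.222% ± 0.00170 in 7-day cells (SD, n = 2 each). Control cells at day 0 had 2570 and 2480 CPM, nearer to the 7-day level. By day 3 of induction its level was 632 and 642 CPM after 14 days, against 320 and 331 CPM after 7 days, and the difference between the groups was still 0.97 on the log2 scale (SE 0.04, adjusted p = 2.55e-19).

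Among the 15 largest falls of genes that reached 5 CPM in the 7-day libraries, fitted log2 differences ran from -4.09 to -5.68. ENSRNOG00000023227 headed them with 0.106 and 0.189 CPM in 14-day libraries, which is 2 and 4 reads, against 8.67 and 7.33 CPM in 7-day libraries, or 143 and 118 reads (log2 difference -5.68, SE 0.44, adjusted p = 2.12e-12). Before induction, control cells had 1.01 and 0.555 CPM. Here it was the 7-day libraries that stood farthest from control cells (log2 difference 3.34, SE 0.34, adjusted p = 7.49e-10). The 14-day cells were also lower than control cells (log2 difference -2.34, SE 0.63, adjusted p = 0.00648). The 7-day libraries stood apart again at day 3, with 9.05 and 7.50 CPM. After 14 days it then had 0.451 and 0.373 CPM (log2 difference 14 minus 7 days -4.31, SE 0.38, adjusted p = 3.06e-11).

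ENSRNOG00000003245 showed a similar order, with 0.422 and 0 CPM in 14-day libraries, against 11.2 and 9.32 CPM in 7-day libraries (log2 difference -5.63, SE 0.48, adjusted p = 1.76e-11). All 8 of its reads after 14 days were in replicate 1. Without that library the group has 0 reads and the fitted value of -10.5 is no bound; without replicate 2 the value was -4.58. In control cells before induction it had 0.954 and 1.11 CPM, above the 14-day level (log2 difference 14 days minus control -2.32, SE 0.66, adjusted p = 0.0106). At day 3 it had 1.02 and 1.28 CPM after 14 days, against 7.38 and 9.42 CPM after 7 days, still lower (log2 difference -2.86, SE 0.36, adjusted p = 1.57e-07).

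**Figure D2:**
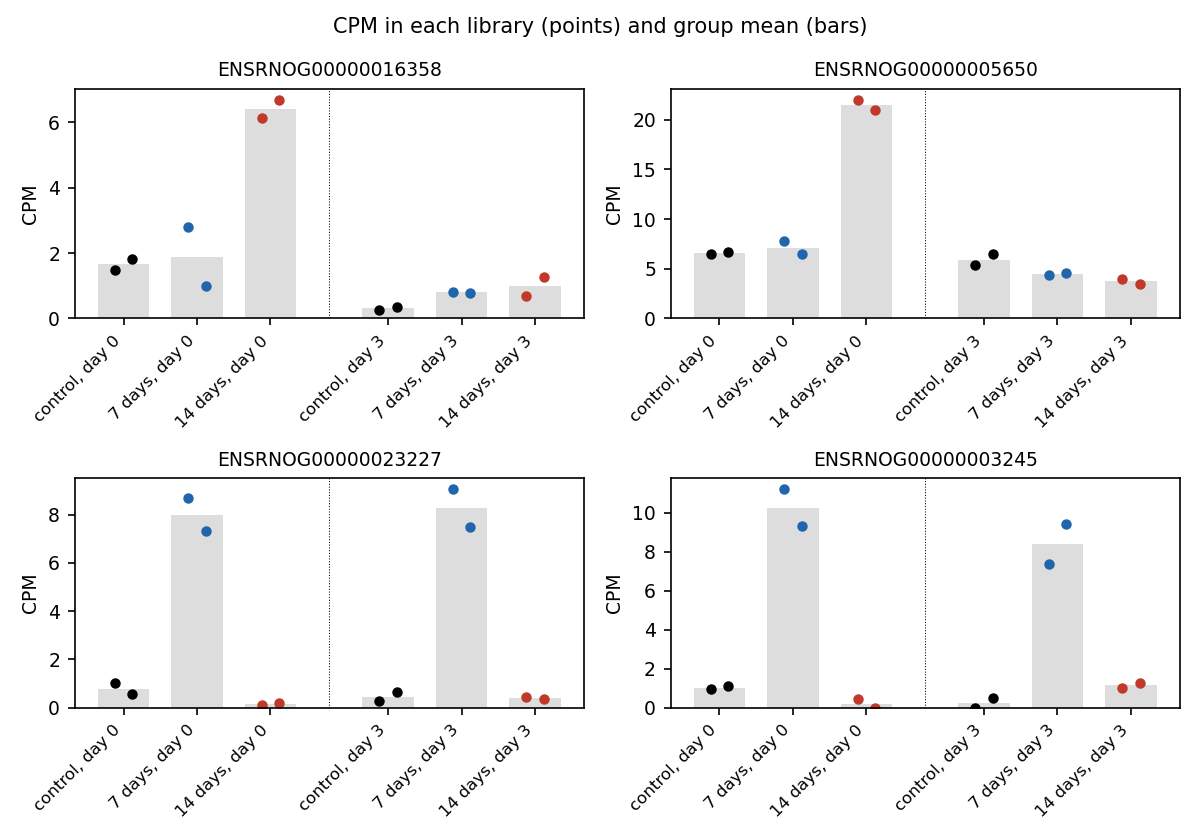
CPM of the 2 top-ranked higher and the 2 top-ranked lower genes in each of the 12 libraries (points) with the group means (grey bars), control, 7-day and 14-day cells at day 0 and at day 3. The 2 higher genes stand out in 14-day cells at day 0 alone, and the 2 lower genes stand out in 7-day cells at both days.

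Not all lower genes were at such low levels. The gene with the most counts among the 114 that were at least 8-fold lower, also picked after its values were seen, had 22.1 and 21.7 CPM in 14-day libraries, against 359 and 364 CPM in 7-day libraries (log2 difference -4.04, SE 0.07, adjusted p = 1.32e-31). Control cells at day 0 had 27.7 and 28.0 CPM. At day 3 it had 31.1 and 34.8 CPM after 14 days, against 249 and 247 CPM after 7 days. As a group the 114 had a median of 8 reads in both 14-day libraries together, against 116.5 reads in the 7-day libraries. Of these, 29 had at most 3 reads after 14 days, a floor of 0.0749 CPM, and 11 had 0. With genes at the floor set to it, the median log2 difference of the 114 was -3.59, against -3.86 as fitted.

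Together the 114 genes took 0.0129% of the counts in each 14-day library, against 0.193% and 0.188% in the 7-day libraries. The 274 genes at least 2-fold lower took 0.0679% and 0.0662% in 14-day libraries, against 0.350% and 0.349% in 7-day libraries. The 42 genes at least 2-fold higher took 0.629% and 0.638% in 14-day libraries, against 0.292% and 0.290% in 7-day libraries. Without their most abundant member these shares were 0.148% and 0.149% after 14 days, against 0.0687% and 0.0694% after 7 days. The genes were chosen on these 4 libraries, so the shares describe the choice and are not tested; an exact two-sided permutation test of 2 against 2 libraries could not go below p = 0.333.

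The control libraries of day 0 were not in the contrast that chose these genes, although they shared its fit and filter, and give the level without unloading. The filter asked for enough reads in as few as 2 libraries, so a gene could enter through the 7-day libraries alone. Such a gene is low in control cells because of how it entered. How many of the genes below entered in this way was not counted. Of the 274 genes at least 2-fold lower in 14-day cells, the mean log2 CPM of control cells was nearer to the 14-day level in 203 and nearer to the 7-day level in 71. Of the 114 at least 8-fold lower, it was nearer to the 14-day level in 103. Some of these placements rest on few reads. In control cells 17 of the 203 genes had at most 3 reads, and 30 of the 274 had at most 3 reads after 14 days. The 274 took 0.144% and 0.143% of the control counts, between the shares of the unloaded groups, and the 114 took 0.0211% and 0.0223%. Over the 114 genes the median log2 CPM relative to the 7-day level was -3.29 in 14-day cells and -2.93 in control cells. A prior count of 2, added before the logs were taken, draws such low levels together. The median level of the 114 was 0.208 CPM in 14-day cells, 0.494 CPM in control cells and 3.58 CPM in 7-day cells.

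For smaller differences the control level was less one-sided. Among all 827 lower genes it was nearer to the 14-day level in 540 (65.3%), and beyond it, lower still, in 303. Among the 723 higher genes it was nearer to the 14-day level in 376 (52.0%), and among the 42 that were at least 2-fold higher in 21. With scaling to the total count control cells were nearer to the 14-day level in 217 of 310 genes at least 2-fold lower and in 17 of 36 at least 2-fold higher. The wider spread between the 7-day replicates, given above, goes with these counts, and its part in them was not tested.

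**Figure D3:**
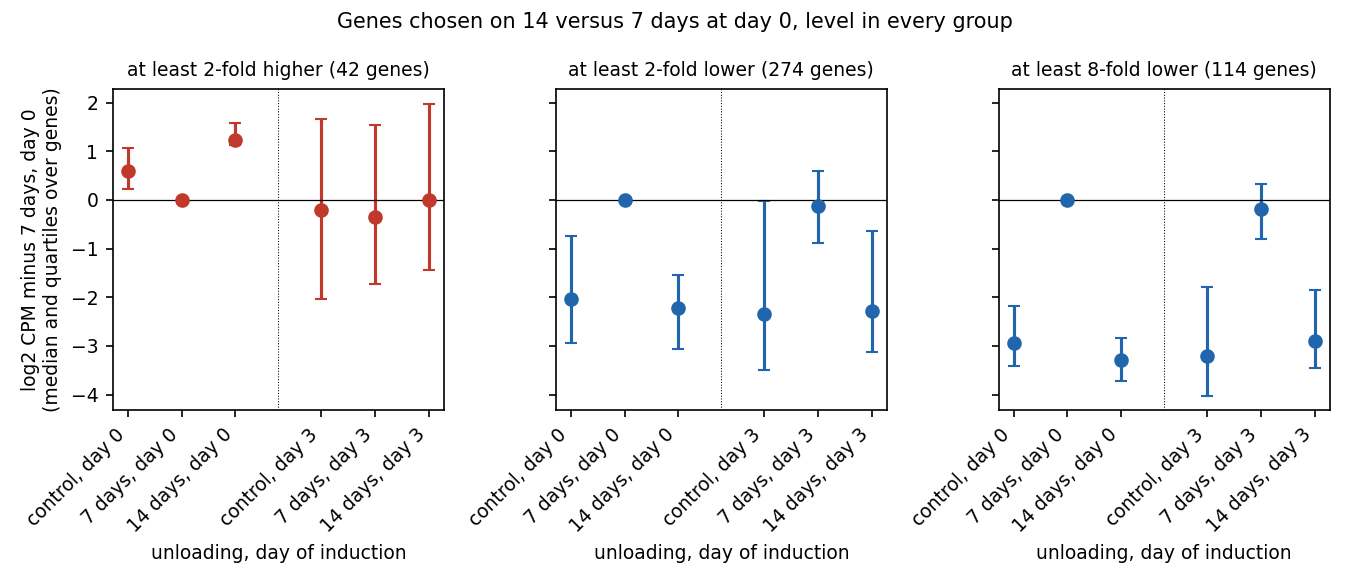
Level of 3 sets of genes, chosen on 14 versus 7 days at day 0, in control, 7-day and 14-day cells at day 0 and at day 3. Each point is the median over genes of log2 CPM minus the 7-day value of day 0, and the bars are quartiles over genes; in the 114 genes at least 8-fold lower, the 7-day cells stand near 0 at both days while the medians of the other 4 groups lie between -2.90 and -3.29.

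The same contrast was measured in other libraries at day 3 of induction. There 11.6% of all genes tested were higher and 11% lower in 14-day than in 7-day cells, 22.6% together. Of the 827 genes lower at day 0, 405 (49.0%) were lower and 71 (8.59%) higher at day 3. Of the 723 genes higher at day 0, 291 (40.2%) were higher and 61 (8.44%) lower at day 3. Among the large falls, 167 of the 274 genes at least 2-fold lower (60.9%) and 85 of the 114 at least 8-fold lower (74.6%) were lower at day 3 too, with a median day 3 log2 difference of -2.05 and -2.96 over each whole set, against -2.60 and -3.86 at day 0. Of the 274, 63 had a less negative difference at day 3 by edgeR's interaction test and 3 a more negative one; they were chosen on the day 0 libraries that this test also uses. Of the 42 genes at least 2-fold higher, 10 were higher at day 3 and 1 was lower, with a median of 0.51.

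In all, 696 genes were called in the same direction at both days, which is 44.9% of the day 0 calls and 23.3% of the 2988 day 3 calls, and 132 in opposite directions. Without replicate 1 of the 14-day group at day 0 these numbers were 437 and 83, and without its replicate 2 the second was 74. Over the 13215 genes the differences at day 0 and day 3 correlated at r = 0.39 (Spearman 0.27), and over the 11740 genes with a mean of at least 1 CPM at r = 0.54 (Spearman 0.29). The libraries of the 2 days are separate, although they share treatment groups and may share cultures, and genes are not independent replicates.

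The difference between 14 and 7 days itself changed between the days in 1134 genes (8.58% of those tested), by the interaction test of edgeR. It was more positive at day 3 in 547 genes (4.14%) and more negative in 587 (4.44%). Most of these, 620, were among the 2160 genes that passed the 14 versus 7 day test at day 3 alone, the largest class of called genes. Another 232 were among the 722 that passed at day 0 alone, and 75 among the 696 that passed at both in the same direction. The 9505 genes that passed at neither day held 75. All 132 genes that passed at both days in opposite directions were included, where the opposite signs make a changed difference likely. Without replicate 2 of the 14-day group at day 0 the count was 737.

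**Figure D4:**
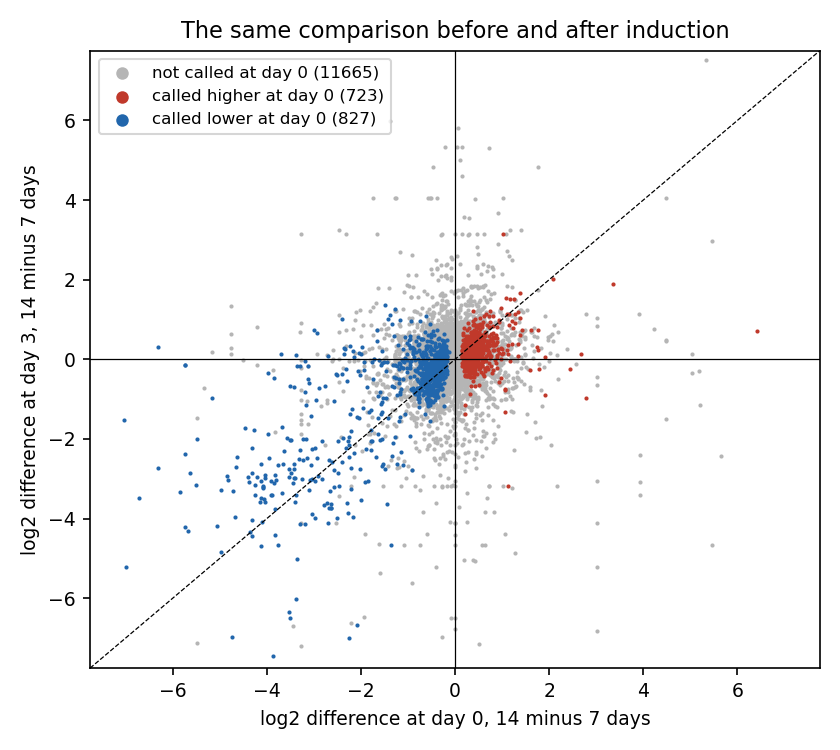
Log2 difference between 14 and 7 days at day 3 (vertical axis) against day 0 (horizontal axis) for 13215 genes, coloured by their day 0 call. The dashed line marks equal differences; of the 114 genes at least 8-fold lower at day 0, 111 lie below 0 at day 3 too, with a median of -2.96 at day 3 and -3.86 at day 0, while many of the red points lie near 0 at day 3.

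The control libraries of day 0 and day 3 give a grouping of genes by induction whose contrast leaves out the 4 libraries compared. Both contrasts come from the same fit and share its filter, scaling and spread, so their calls are not independent. In control cells 25.8% of the genes rose and 26.8% fell over the 3 days. Among the 3546 genes that fell there, 416 were higher and 173 lower in 14-day than in 7-day cells before induction, 11.7% and 4.88% of them. Among the 3414 that rose, 160 were higher and 343 lower, 4.69% and 10% of them. Among the 6255 that did not pass the test in control cells, 147 were higher and 311 lower. With scaling by TMM, 70.6% of the called genes that fell in control cells were thus higher in 14-day cells, against 46.6% of all called genes. The share was 31.8% among the called genes that rose in control cells, close to the 32.1% among those that did not pass there.

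In control cells 218 genes rose at least 8-fold (1.65% of those tested). Of these, 6 (2.75%) were higher and 42 (19.3%) lower in 14-day cells at day 0. Of the 262 that fell at least 8-fold (1.98%), 35 (13.4%) were higher and 14 (5.34%) lower. Over all genes tested the shares were 5.47% and 6.26%. The genes that rose at least 8-fold had a median of 0.293 CPM over the 4 libraries, and 12.5% of their calls were higher. Among all called genes under 1 CPM this share was 11.4%. The part of the level in these counts was not tested. The median differences were small, -0.04 on the log2 scale over all genes that rose in control cells and 0.06 over all that fell, against a median of -0.004 over all genes tested. When libraries were scaled by their totals, 20.6% of all called genes were higher. Of the genes that fell in control cells, 238 were then higher and 308 lower. The higher calls thus no longer led in that class, although their share stayed above that of all called genes. Among those that rose, 81 were then higher and 685 lower. Without replicate 1 of the 14-day group the genes higher in 14-day cells were 226 that fell and 69 that rose in control cells, and without its replicate 2 they were 243 and 83. The lower genes that rose in control cells numbered 205 and 188 without these libraries.

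Counted by any change that passed in control cells, the genes with the largest falls did not show this order. Of the 274 genes at least 2-fold lower in 14-day cells, 69 rose (25.2%) and 68 fell (24.8%) in control cells. These shares were close to the 25.8% and 26.8% of all genes tested. Among genes with large changes in control cells the order did appear. Of the 218 that rose at least 8-fold, 29 were at least 2-fold lower and 4 at least 2-fold higher in 14-day cells. Of the 262 that fell at least 8-fold, these numbers were 8 and 7. Over all genes tested 2.07% were at least 2-fold lower. The 274 genes took 0.143% of control counts at day 0 and 0.762% at day 3. The part of the level in this was not tested. Of the 114 at least 8-fold lower, 21 rose (18.4%), 24 fell (21.1%) and 69 did not pass the test there. Few reads limit that test, since the median of the 114 in control cells was 0.494 CPM at day 0 and 0.503 CPM at day 3.

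**Figure D5:**
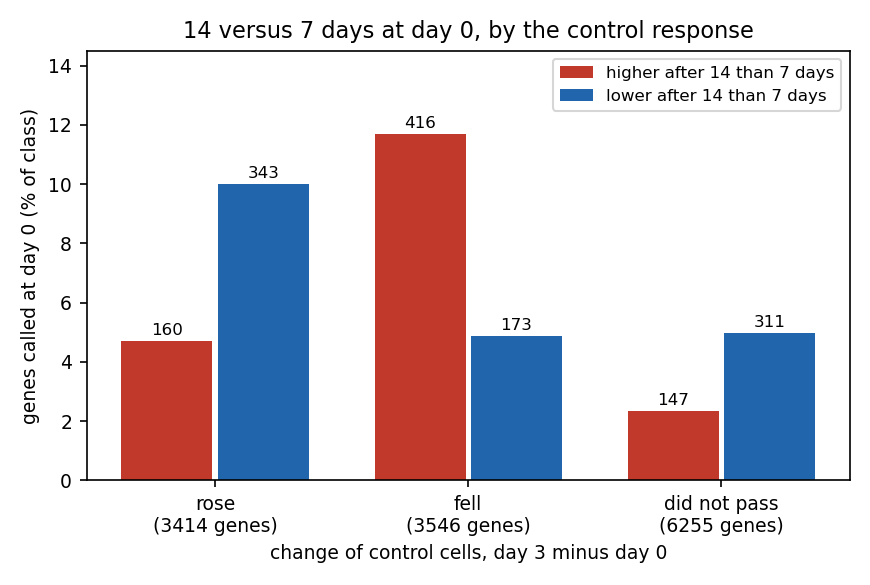
Share of genes called higher (red) and lower (blue) in 14-day than in 7-day cells at day 0, as percent of each class of genes, by how the gene changed in control cells from day 0 to day 3. Numbers above the bars are genes; among genes that fell in control cells 416 were higher and 173 lower, and among genes that rose 160 were higher and 343 lower, with scaling by TMM.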

How the data were processed

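Poly(A) RNA was sequenced in 12 libraries made with a stranded mRNA library kit, per the labels. The authors deposited raw counts per Ensembl gene. The submitters' processing notes list featureCounts 1.6.4, STAR 2.7, FastQC 0.11.9, DESeq2 and the genome build Rnor_6.0. Settings, strand and annotation release: not given in the sources used here, so overlapping or near-identical genes can share reads. From 68.3% to 70.6% of counts from 1 to 20 were even numbers, so each pair of reads may have been counted as 2; floors (3 counts over a group) cover counting error only.

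Genes were kept by filterByExpr and libraries scaled by TMM. The 6 groups were fitted together over 12 libraries (6 residual degrees of freedom) with edgeR 4.0.16 in R 4.3.3 (estimateDisp, glmQLFit and the two-sided glmQLFTest), and p-values were adjusted by Benjamini-Hochberg over all genes, with an FDR of 0.05. Each adjusted p comes from it. The SE is the absolute log2 difference divided by the square root of F. The 2 libraries of a group differed beyond sampling noise: chi-square per degree of freedom, over genes with at least 20 reads, was 3.12 for 14 days and 7.36 for 7 days. Control levels were placed by mean log2 CPM (prior count 2).

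The comparison, gene sets and lists were chosen with earlier results of these data known. The naming rule ranked called genes whose groups did not overlap, with at least 5 CPM in the higher group, by fitted difference; its condition on a gene symbol and the fixed gene lists could not be used, since 0 identifiers matched a name, and the top 2 of each direction are named. Alternatives were RLE size factors, scaling to the total count, DESeq2 1.42.0, other filters, fits to the 4 or 6 libraries of day 0, halved counts, the replicate number as a block, and leaving out each library.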

Additional observations from a re-analysis of the deposited data

Results flagged for a closer look

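The difference between 14 and 7 days of unloading was not the same before and after induction in 1134 genes, by edgeR's interaction test at an FDR of 0.05. Among the genes named above, ENSRNOG00000005650 stood out because it was higher in 14-day cells at day 0 and did not pass the test at day 3 (difference of the log2 differences -1.85, SE 0.27, adjusted p = 5.10e-06). ENSRNOG00000003245 was lower in 14-day cells at both days, by less at day 3 (difference of the log2 differences 2.77, SE 0.71, adjusted p = 0.00895). Both genes were chosen on the day 0 libraries that enter this test, so its size is not independent of the choice.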

How the results depend on the processing

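Of the counts that answer a comparison, scaling to the total count moved 2 by over 1.5 times: 396 genes were higher and 1523 lower at day 0. DESeq2, RLE size factors, both other filters and halved counts kept each such count within 1.5 times, as did the fits to 4 or 6 libraries for the counts of day 0, which are all they give. DESeq2 and RLE size factors turned the split, with 53.3% of the called genes higher in each, and so did leaving out replicate 2 of the 7-day group, with 53.1%, against 46.6%. Leaving out 1 library of day 0 gave 354 to 900 genes higher, 480 to 795 lower, 27 to 51 at least 2-fold higher, 208 to 242 at least 2-fold lower, 437 to 861 called alike at day 3, and 737 to 1530 with a changed difference. The remaining library of the group was assumed to vary like the other groups. Without replicate 1 or 2 of the 14-day group, 837 and 857 of the 1550 calls stood. The causes were not tested. The replicate block gave 658 genes higher and 778 lower. Same-numbered libraries of 14 and 7 days did not deviate together over genes (r = 0.00890). Each group gives a single replicate difference, so this r cannot tell whether the numbers stand for shared cultures, animals or batches. Each of the 4 named genes kept its direction and passed the threshold in all alternatives. The gene list counts were not run, for want of gene names. Depth limits the lower genes most: 30 of the 827 had at most 3 reads after 14 days.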
